A study of Mus musculus with 8 samples.

Results

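Interferon-induced genes and the genes of class I antigen presentation were followed here as a named set of 32 genes among the 22000 rows of a table of read counts from mouse cortex. The set holds 24 interferon-induced genes (RNA sensors, signalling proteins and antiviral effectors) and 8 genes of the class I pathway. It was chosen by gene name, with earlier results of these data known. RNA was sequenced from the whole cortex of 8 mice, 4 labelled Mef2c heterozygous and 4 labelled Mef2c wild type, each group with 2 males and 2 females. The samples were randomised before poly-A selected libraries were made. The labels give no age, strain or description of the Mef2c allele. The labels put every library in a mouse of its own, and the animal numbers in the titles fall into a first run of lower numbers and a second run of higher numbers, with 1 mouse of each sex and genotype in either. What the runs stand for is not stated.

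Type I interferons bind a receptor on nearly every cell and activate transcription factors, STAT2 and IRF9 among them, that switch on many antiviral genes. Some of these genes are also kept at a low resting level without infection, and microglia and endothelial cells of the brain are well-known responders. Class I molecules, made of a heavy chain and beta-2-microglobulin, show peptides from inside the cell to T cells, and in the cortex they have also been studied for roles at synapses.

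The targeted gene did not follow its label. Mef2c, the transcription factor gene named in the genotype, stood at 1233, 1336, 1391 and 1255 CPM in the libraries labelled heterozygous and at 1038, 939, 999 and 1003 CPM in those labelled wild type. A CPM value is a read count relative to the scaled size of its library. The libraries labelled heterozygous thus held more Mef2c reads, by 0.39 ± 0.05 (log2 fold change ± SE, adjusted p = 0.000154, edgeR). Whether reads over the altered part of the gene are among these counts cannot be seen from a gene total. All directions below refer to the labels. Libraries held 16092773 to 17841377 reads, of which the 32 genes took 0.0252% to 0.0319%. The 14 markers of cortical neurons summed to between 7162 and 7633 CPM and the 20 markers of leukocytes and border macrophages to between 10.2 and 13.8 CPM, with 2 of them at 0 in every library.

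At rest, 28 of the 32 genes were detectable, taken as 10 or more reads in 4 or more libraries, and the same 28 were tested. Of these, 26 had 10 reads in all 8 libraries. Dhx58 reached 10 reads in 7 and Rsad2 in 4. The 4 that fell short were Mx1, an antiviral GTPase, with 1 to 5 reads a library, Usp18, which removes ISG15 and restrains the interferon receptor, with 3 to 14, Psmb9, a catalytic subunit of the immunoproteasome, with 8 to 21, and Nlrc5, the transactivator of class I genes, with 0 to 14. Psmb9 and Usp18 each reached 10 reads in 3 libraries, Nlrc5 in 1 and Mx1 in 0. The single 0, for Nlrc5 in replicate 4 labelled wild type, allows up to 3 reads by counting error alone.

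Per kilobase of exon, the detectable genes spanned a wide range of levels. B2m, the light chain of every class I molecule, came first at 89.5 CPM per kilobase, and its libraries did not overlap those of any other member. H2-D1, a class I heavy chain, followed at 11.6 and Ifi27, an interferon-induced membrane protein, at 9.91 CPM per kilobase, and these overlapped each other. A group of 6 genes lay between 5.69 and 3.25 CPM per kilobase, each overlapping its neighbour in the order. It held Tapbp, Ifitm3, Stat2, H2-K1, Ifit3 and Ifit2. The group was not set apart from the genes around it. Ifitm3 reached 7.87 in its highest library, above the lowest Ifi27 library at 7.81. Isg15 reached 3.15, above the lowest Ifit2 library at 2.72. From Irf9 at 2.24 CPM per kilobase down to Rsad2 at 0.143, every neighbouring pair overlapped. The 2 heavy chains share long stretches of sequence with each other and with further H2 genes, so their counts depend on how such reads were assigned, and the same holds for Ifit3 and its copy Ifit3b.

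**Figure D1:**
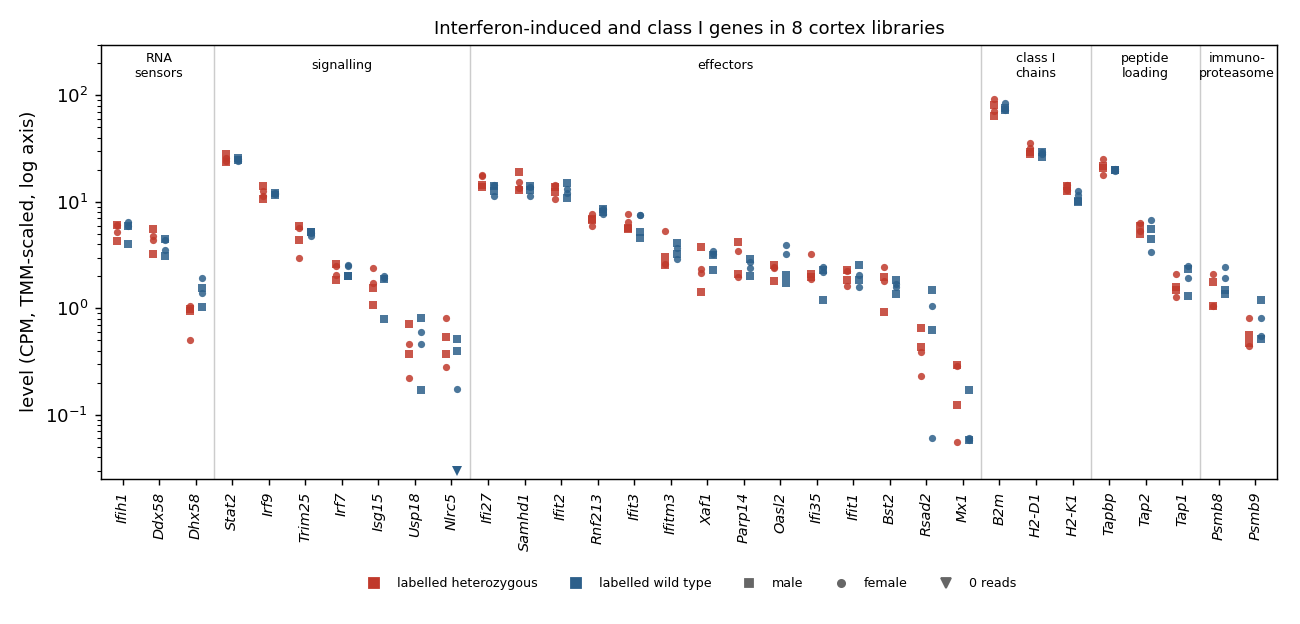
Level of each of the 32 genes in the 8 cortex libraries (TMM-scaled CPM, log axis), grouped by role, with colour for the labelled genotype, shape for sex and a triangle at the lower edge for 0 reads. B2m stands above all other genes, Mx1 lies lowest, and H2-K1 is the only detectable gene whose groups do not overlap.

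Between the genotypes, none of the 28 tested genes passed the test. H2-K1 was the nearest, with every library labelled heterozygous above every library labelled wild type, and B2m, Ifit2, Irf7, Ifit1, Isg15 and Stat2 stood within 0.03 of 0 on the log2 scale. At a Benjamini-Hochberg adjusted p under 0.05 in edgeR's quasi-likelihood test, 0 of 28 were called, against 37 of all 13879 genes tested (0.267%). The DESeq2 Wald test and limma-voom also called 0. At an unadjusted p under 0.05 there were 3 of 28, against 7.24% of all genes, and groups did not overlap for 1 of 28, against 4.55%. Of the 28, 17 lay above 0 and 11 below, with a median log2 fold change of 0.02, beside a median of -0.0011 over all genes tested. A difference of more than 2-fold lay outside the 95% interval of 26 of the 28 genes, and one of more than 1.5-fold outside that of 16. Rsad2 and Dhx58, the genes with the fewest reads, were the other two.

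**Figure D2:**
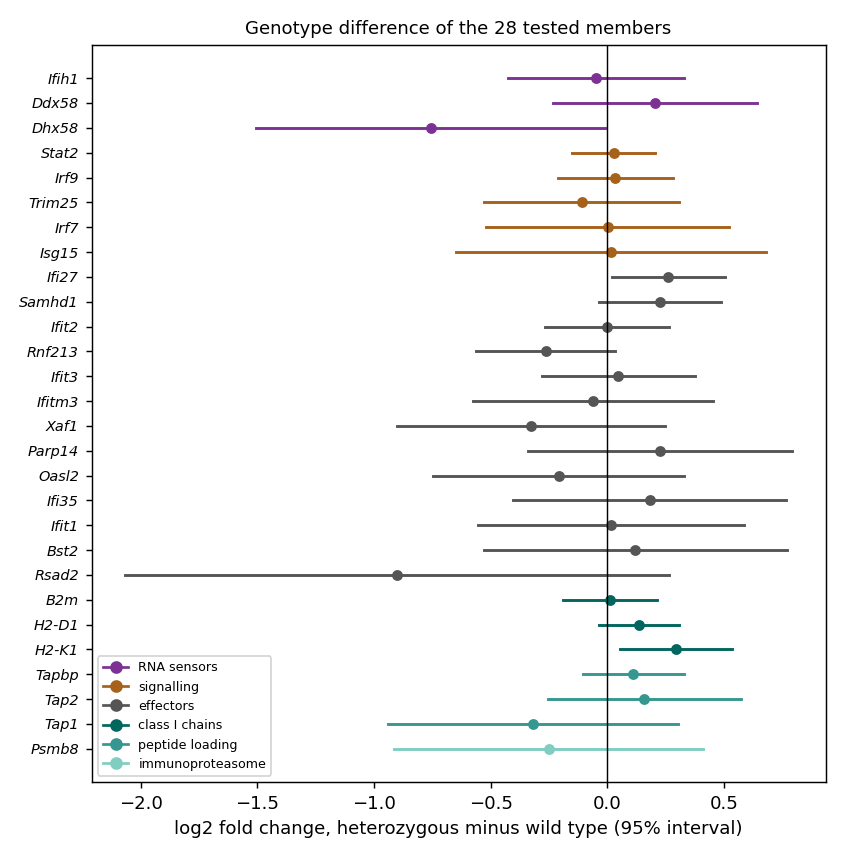
Log2 fold change of the 28 tested genes, labelled heterozygous minus labelled wild type, with 95% intervals from edgeR, ordered and coloured by role. The intervals of H2-K1, Ifi27 and Dhx58 leave out 0 before adjustment, and those of Rsad2 and Dhx58 are the widest.

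The sensors are helicases that detect viral RNA in the cytosol. Ifih1 (MDA5), which binds long double-stranded RNA, lay between 4.01 and 6.48 CPM over the 8 libraries and differed by -0.05 ± 0.18 on the log2 scale. Ddx58 (RIG-I), which binds RNA ends with a triphosphate, lay between 3.11 and 5.51 CPM and differed by 0.20 ± 0.21. Dhx58 (LGP2), which modulates the other two, stood at 0.948, 1.04, 0.994 and 0.504 CPM in the libraries labelled heterozygous and at 1.40, 1.04, 1.55 and 1.94 CPM in those labelled wild type. The groups meet at 1.04 CPM, where replicate 2 of either genotype lies. Its log2 fold change was -0.76 (95% interval -1.51 to -0.01, adjusted p = 0.677, edgeR), on 160 reads in all.

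Among the signalling genes, Stat2 and Irf9 encode transcription factors that act downstream of the interferon receptor. Stat2 stood at 27.9, 25.6, 23.9 and 24.4 CPM in the libraries labelled heterozygous and at 25.1, 25.6, 24.98 and 24.1 CPM in those labelled wild type, a log2 difference of 0.03 ± 0.09. Irf9 lay between 10.7 and 14.1 CPM and differed by 0.03 ± 0.12. Irf7, the factor that amplifies type I interferon production, lay between 1.86 and 2.61 CPM and differed by 0.00 ± 0.25. Values for Isg15, a ubiquitin-like modifier, were 0.02 ± 0.32, and for Trim25, a ubiquitin ligase that acts with RIG-I, -0.11 ± 0.20. None of the 5 tested signalling genes had an unadjusted p under 0.05.

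Ifi27 had the smallest p of the 13 tested effectors. It stood at 14.5, 17.5, 13.8 and 17.7 CPM in the libraries labelled heterozygous and at 11.5, 12.7, 14.2 and 14.4 CPM in those labelled wild type. The groups overlapped, because replicate 3 labelled heterozygous lay below 2 libraries labelled wild type. The log2 fold change was 0.26 ± 0.12 (adjusted p = 0.613, edgeR).

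The Ifit genes, which form a cluster on chromosome 19 and encode proteins that bind foreign RNA, differed little. Ifit2 averaged 12.8 ± 1.62 CPM in the libraries labelled heterozygous and 12.8 ± 1.77 CPM in those labelled wild type (SD, n = 4). Ifit1 and Ifit3 differed by 0.02 ± 0.28 and 0.05 ± 0.16 on the log2 scale. Their 95% intervals ran from -0.56 to 0.59 and from -0.28 to 0.37, which is the precision that 4 libraries a group gave.

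Further effectors stood on both sides of 0. Samhd1, which breaks down nucleotides needed by viruses, averaged 15.3 ± 2.87 CPM against 13.1 ± 1.28 CPM (SD, n = 4), and Rnf213, a large ubiquitin ligase, 6.87 ± 0.729 against 8.25 ± 0.441 CPM, labelled heterozygous first. Neither was called. The log2 differences were 0.23 for Parp14, an ADP-ribosyltransferase, 0.18 for Ifi35, 0.12 for Bst2 (tetherin, which holds budding virus at the cell surface) and -0.06 for Ifitm3, which blocks virus entry. They were -0.21 for Oasl2, a relative of the oligoadenylate synthetases, and -0.33 for Xaf1, which favours cell death. Rsad2 (viperin) stood at 0.652, 0.232, 0.435 and 0.392 CPM in the libraries labelled heterozygous and at 1.05, 1.497, 0.630 and 0.0606 CPM in those labelled wild type. The wild type group thus held both its highest and its lowest library, the lowest with a single read, and the log2 difference of -0.90 had a 95% interval from -2.07 to 0.27.

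In the class I pathway, H2-K1 stood at 14.2, 14.3, 12.7 and 12.9 CPM in the libraries labelled heterozygous and at 11.5, 9.90, 10.2 and 12.5 CPM in those labelled wild type. The heterozygous group lay wholly above the wild type group, though only just, with means of 13.5 ± 0.823 and 11.04 ± 1.22 CPM (SD, n = 4). Its log2 fold change of 0.29 ± 0.12 (95% interval 0.05 to 0.54) had an adjusted p of 0.512 in edgeR and did not pass. Over the alternatives the adjusted p of H2-K1 lay between 0.412 and 0.833. H2-D1, the other classical heavy chain, averaged 31.4 ± 3.17 against 28.5 ± 1.35 CPM (log2 difference 0.14 ± 0.08). B2m averaged 77.4 ± 12.5 against 76.6 ± 6.01 CPM (0.01 ± 0.09).

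The peptide loading genes gave 0.11 ± 0.10 for Tapbp (tapasin, which edits the peptides that class I binds), 0.16 ± 0.20 for Tap2 and -0.32 ± 0.30 for Tap1, which together form the peptide transporter. Psmb8, a catalytic subunit of the immunoproteasome, gave -0.25 ± 0.32. H2-K1, H2-D1, Tapbp, Tap1, Tap2, Psmb8 and Psmb9 all lie on chromosome 17 between positions 33915899 and 35267499 (GRCm38), while B2m lies on chromosome 2 (122147686 to 122153083). Tapbp shares 3422 bases with Zbtb22 on the same strand, where no strand setting would separate shared reads. Tap1 shares 212 bases with Psmb9 on the opposite strand, and the strand setting is not stated. Outside the class I genes, Irf9 shares 123 bases with Rnf31 on the same strand and Irf7 shares 45 with Phrf1 on the opposite strand. These overlaps are of whole gene spans, introns included, so the number of reads affected is not known. Patl2 overlaps B2m on the opposite strand and had at most 2 reads in a library.

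Called cell type markers between the genotypes were all microglial. Of 19 microglial markers, 3 rose in the libraries labelled heterozygous: C1qb (0.45 ± 0.07) and C1qc (0.36 ± 0.07), which encode chains of complement C1q, and Ctss (0.47 ± 0.07), a lysosomal protease. Over all genes tested, 0.267% were called and 7.24% had an unadjusted p under 0.05 in edgeR. Of the microglial markers, 6 had such a p, and 7 lay higher without overlap and 0 lower, against 4.55% of all genes in either direction. Of the 19 markers, 14 lay above 0 and 5 below, the lowest at -0.24, with a median log2 fold change of 0.14. The 19 summed to 545.4 to 618.3 CPM in the libraries labelled heterozygous. In those labelled wild type they summed to 512.8 to 544.9 CPM, without overlap, though only just. The 3 called genes are part of this sum, and the list was chosen with earlier results of these data known. The 10 astrocyte markers also summed without overlap, in the other direction, to 4453 to 4758 CPM in the libraries labelled heterozygous and 4789 to 4833 CPM in those labelled wild type. None of the 10 was called, 8 lay below 0, 2 had an unadjusted p under 0.05 in edgeR, and their median was -0.03. Taken singly, 0 of the 10 lay lower without overlap and 1 lay higher, against 4.55% of all genes in either direction. The 10 ranged from 4983 to 375516 reads over the 8 libraries, and a sum follows the genes with most reads. Of the 14 cortical neuron markers, 0 were called and 5 had an unadjusted p under 0.05, with a median of 0.07 and overlapping sums. The 8 tested markers of leptomeninges and choroid plexus had a larger median than the microglial markers, 0.33, with 6 above 0 and 2 below. None of the 8 was called, 1 had an unadjusted p under 0.05 in edgeR, and the sums of this list overlapped. The part of these markers in the H2-K1 and Ifi27 values was not tested. In whole cortex, fewer cells of a type and less RNA per cell cannot be told apart.

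Within the runs and the sexes, the genotype differences of the set had mixed signs. A difference of the same sign in both runs was found for 10 of the 28 genes, 6 above 0 and 4 below. The sign was the same in both sexes for 18. The share over all genes tested was not counted, so these numbers show nothing particular to the set. H2-K1 was higher in the libraries labelled heterozygous in either run, by 0.40 in the first and 0.17 in the second (difference of mean log2(CPM + 0.5)), and Ifi27 by 0.38 and 0.13. Dhx58 was lower by -0.19 and -0.87. B2m had opposite signs, 0.11 in the first run and -0.10 in the second, as did Rsad2, with -0.94 and 0.20. Each run holds 2 libraries a genotype, and the difference between runs was not tested.

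**Figure D3:**
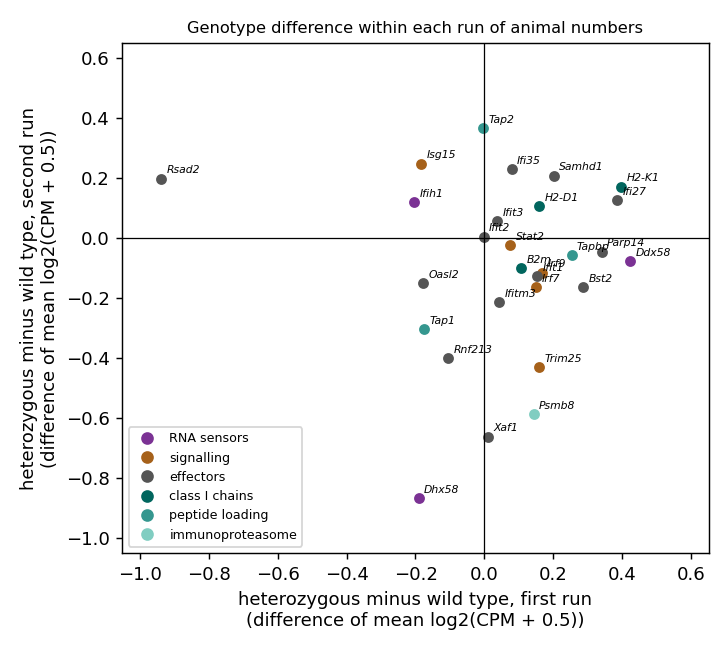
Genotype difference of the 28 tested genes in the first run of animal numbers (horizontal) against the second run (vertical), each as labelled heterozygous minus labelled wild type of mean log2(CPM + 0.5), from 2 libraries a group. A sign is shared by 10 genes, with H2-K1 and Ifi27 above 0 in both and Dhx58 below 0 in both.

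Between the runs themselves the set, chosen with earlier results of these data known, stood lower in the second. B2m, Ifit2, Tap2 and Stat2 were lower in all 4 libraries of the second run than in any of the first, and 24 of the 28 genes lay below 0, with a median log2 fold change of -0.20 (second minus first run). Over all genes tested the median was 0.0021 and 6808 of 13879 lay below 0. All 7 tested class I genes were below 0 (median -0.26), and 17 of the 21 tested interferon-induced genes (median -0.20). Related lists outside the set had run medians nearer 0 or above it. The medians were 0.10 for 5 interferon and receptor genes, 0.002 for 14 interferon signalling genes and 0.03 for 17 other class I genes. For 15 genes of nucleic acid sensing the median was -0.05, with 9 below 0. For 31 other interferon-induced genes it was -0.07, with 20 below 0. No gene of the set was called, against 0.382% of all genes (53 of 13879) in edgeR's quasi-likelihood test. At an unadjusted p under 0.05 there were 5 of 28 (B2m, Ifit2, Tap2, Ifitm3 and Rsad2), against 10.2% of all genes. The 4 without overlap compare with 5.46% of all genes.

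B2m stood at 81.9, 92.4, 85.1 and 76.6 CPM in the first run and at 63.9, 71.3, 72.3 and 72.4 CPM in the second. The means were 84.0 ± 6.59 and 70.0 ± 4.05 CPM (SD, n = 4), and the log2 fold change was -0.26 ± 0.06 (adjusted p = 0.0561, edgeR). The call for B2m rests on the settings: its adjusted p was 0.0360 with the DESeq2 Wald test, 0.0301 without a filter on low counts and 0.0287 without replicate 3 labelled wild type, and leaving out other libraries raised it to as much as 0.373. Limma-voom called no gene of the set between runs.

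Ifit2 stood at 13.8, 14.3, 13.1 and 15.03 CPM in the first run and at 12.3, 10.7, 10.9 and 11.999 CPM in the second (log2 fold change -0.30 ± 0.11, adjusted p = 0.327, edgeR). Tap2 stood at 5.92, 6.38, 6.81 and 5.59 CPM against 4.97, 5.37, 4.47 and 3.39 CPM (-0.44 ± 0.18, adjusted p = 0.360, edgeR). Both separated the runs in each genotype. Stat2 averaged 26.0 ± 1.26 against 24.3 ± 0.458 CPM (SD, n = 4), a difference of -0.10 ± 0.08. Ifitm3 and Rsad2 gave -0.51 ± 0.22 and -1.10 ± 0.52 with overlapping libraries. H2-K1 and H2-D1 gave only -0.04 ± 0.11 and -0.08 ± 0.08.

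**Figure D4:**
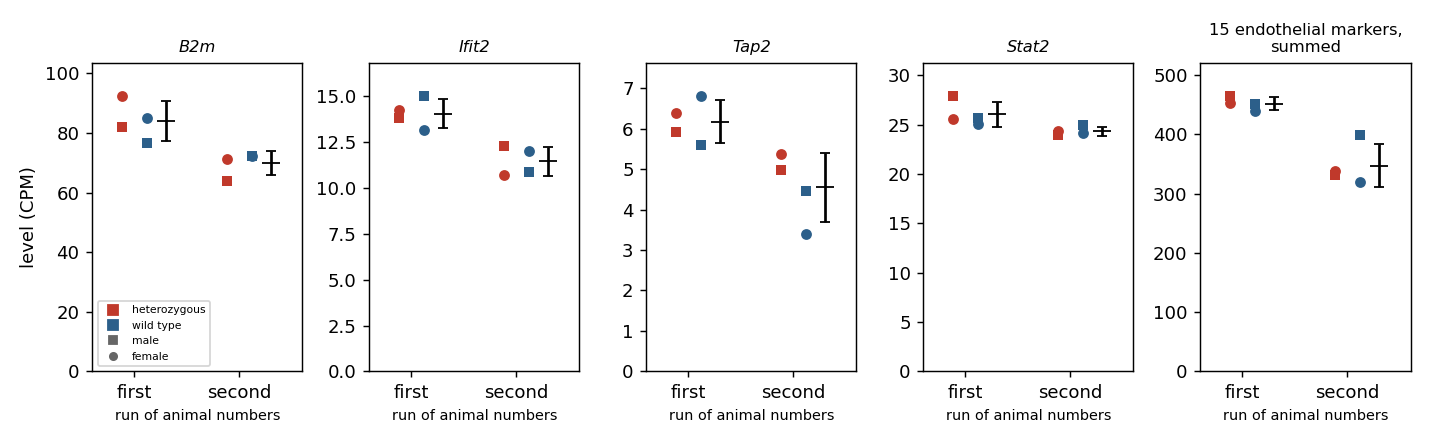
CPM in each library of B2m, Ifit2, Tap2 and Stat2 and the summed CPM of 15 endothelial markers, by run of animal numbers, on axes from 0; colour gives the labelled genotype, shape the sex, and bars the mean and SD of 4 libraries. In each of the 5 panels all libraries of the second run lie below all libraries of the first.

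Endothelial markers moved with the runs as well. All 15 lay below 0 in the second run, with a median of -0.40, and 4 fell: Slc2a1, the glucose transporter of the blood-brain barrier (-0.35 ± 0.07), Abcb1a, a drug efflux pump (-0.47 ± 0.09), Ly6c1 (-0.40 ± 0.08) and Pecam1, an adhesion molecule of vessel walls (-0.53 ± 0.12). Their sum lay at 439 to 465 CPM in the first run and at 320 to 400 CPM in the second. Of 14 cortical neuron markers 1 was called, the interneuron peptide gene Sst, which rose (0.22 ± 0.05). The 14 had 8 above 0 and 6 below, with a median of 0.006. The 19 microglial markers gave no call, with 6 above 0, 13 below and a median of -0.05. Over all genes tested, 0.382% were called between the runs. The part of the endothelial markers in the lower B2m, Ifit2 and Tap2 levels was not tested. The 32 genes together took 276.8 to 320.7 CPM in the first run and 252.3 to 273.2 CPM in the second.

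Sex gave no call within the set, against 0.0288% of all genes (4 of 13879) in edgeR's quasi-likelihood test. The DESeq2 Wald test and limma-voom also called 0. Unadjusted p-values under 0.05 were found for 2 of the 28, against 2.92% of all genes. Ifit3 stood at 5.63, 5.59, 4.55 and 5.27 CPM in the males and at 6.44, 7.72, 7.51 and 7.51 CPM in the females, and every male lay below every female. The difference, male minus female, was -0.47 on the log2 scale, with means of 5.26 ± 0.5002 and 7.30 ± 0.580 CPM (SD, n = 4). Oasl2 averaged 2.04 ± 0.373 CPM in males and 3.003 ± 0.737 CPM in females (-0.54), with overlap. Both genes had an adjusted p of 0.9997 in edgeR. The share of all genes without overlap between the sexes was not counted. Of the 28 genes, 9 lay above 0 and the median was -0.09. For the interaction of genotype and sex, 0 of the 28 genes were called, as of all genes (0%), and 0 had an unadjusted p under 0.05, against 2.64% of all genes; the other tools called 0 here too.

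Some of the 28 genes varied little more between mice than reading a limited number of molecules would give. The variance between the 8 libraries was 0.67 times the counting variance for Irf7, 1.02 times for Ifit1, 1.07 times for Stat2 and 1.39 times for Irf9, and it was under 2 times for 6 genes. Stat2 had the lowest coefficient of variation, 5.02%. B2m stood at the other end, at 17.995 times the counting variance with a coefficient of variation of 11.8%, since its 10527 reads leave little counting noise. Samhd1 (6.66 times), Rsad2 (5.91) and Ifi27 (5.57) followed. Rsad2 varied most, by 74.95%.

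**Figure D5:**
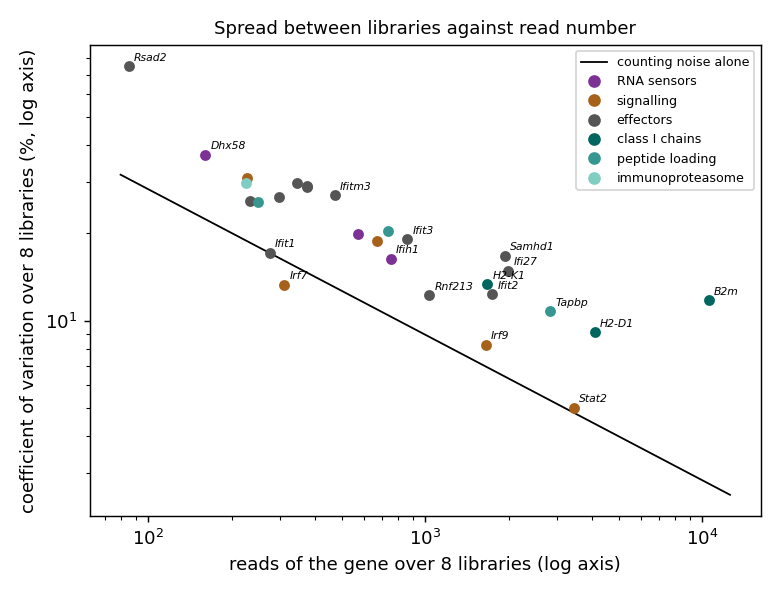
Coefficient of variation over the 8 libraries against the reads of each of the 28 tested genes (both log axes), with a line for counting noise alone and names for some of the genes. Stat2, Ifit1, Irf7 and Irf9 lie on or near the line, while B2m lies far above it.

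In the rest of the pathway no gene was called between genotypes. Of the interferons and their receptors, 5 of 14 were tested and 0 called, and 7 interferon genes (Ifnb1, Ifna1, Ifna2, Ifna4, Ifng, Ifnk and Ifnl3) had no read in any library. No read in a library of this depth allows up to 0.168 to 0.186 CPM, and counting error only is covered. The median differences of the other pathway lists, none with a called gene, were -0.01 for 14 interferon signalling genes, -0.04 for 15 genes of nucleic acid sensing and -0.08 for 31 other interferon-induced genes, of which 11 lay above 0 and 20 below. They were 0.01 for 17 other class I genes, 0.04 for 14 subunits of the constitutive proteasome and -0.21 for 3 class II genes. At an unadjusted p under 0.05 these lists held 0, 0, 2, 0, 1 and 0 genes in this order, and the interferon and receptor list held 0. Over all genes tested the share was 7.24%.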

How the data were processed

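The authors deposited whole-number read counts, 1 row per gene symbol and 1 column per library. Alignment and counting used STAR 2.5.2b and HTSeq on mm10, per the submitters' processing notes. Which annotation and strand option were used, and whether rows were filtered, is not given in the sources used here. Of the 22000 rows, 4602 held no read. Symbols were matched to GENCODE M21 (19642 rows, all 32 members) for coordinates and exon length.

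Low genes were removed with filterByExpr by genotype (minimum count 10), leaving 13879 genes with 99.95% of reads, and libraries were TMM-scaled. Genes were tested by robust quasi-likelihood fits in edgeR 4.0.16 (R 4.3.3) with sex and genotype as terms, a run term added for the runs and a product term for the interaction. Benjamini-Hochberg adjustment ran over all 13879 genes, with calls at an adjusted p under 0.05. Standard errors are the log2 fold change over the root of F. The steps were tested on simulated data. Read totals limit precision, and counting floors and intervals cover counting error only. A search of promoter windows for interferon response motifs was also made and is not reported, because no file used here gives the letters of those motifs. Replicate numbers follow accession order and pair nothing.

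The members and the lists were chosen with earlier results of these data known. The text names all members, Mef2c and, of each list, up to 4 called genes by smallest p in the genotype or run comparison. The interferon genes without reads and the genes of the closing section were chosen after their values were seen. Alternatives were DESeq2 size factors and Wald test (1.42.0), upper-quartile scaling, limma-voom (3.58.1), no filter, 1 CPM in 4 libraries, a run term, no sex term, RNA integrity as a term, a threshold of 0.1, other detection rules and each library left out in turn.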

Additional observations from a re-analysis of the deposited data

Results flagged for a closer look

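In 3 of the 56 groups of 4 libraries examined (28 genes in either genotype, 5.36%), 1 library stood far from the others. Chance flags about 5% of such groups. Ifi35 stood at 3.25 CPM in replicate 2 labelled heterozygous, and the next library of that group at 2.11 CPM. Ifitm3 stood at 5.34 CPM in the same library, and the next at 3.02 CPM. Isg15 stood at 0.802 CPM in replicate 3 labelled wild type, and the others of that group at 1.9004 to 1.9998 CPM.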

How the results depend on the processing

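No gene of the set was called between genotypes or sexes, or for their interaction, under any alternative. For the 58 differences of single genes, 60 of 954 alternatives changed the sign, spread over 20 of the differences, and 3 made a call, all for B2m between runs. All genes called between genotypes numbered 37, and 72 with an adjusted p under 0.1, 82 without a filter, 80 with the DESeq2 Wald test, 72 with a run term and 19 to 80 with a library left out (80 without replicate 1 labelled heterozygous, 24 without replicate 2, and 23 and 19 without replicates 1 and 2 labelled wild type). Genes of the set called between runs went from 0 to 1, B2m, at an adjusted p under 0.1, without a filter and with the DESeq2 Wald test, and were 0 to 1 with a library left out. The set's median genotype difference of 0.02 lay at -0.07 to 0.07 with a library left out, below 0 without replicates 1 or 2 labelled heterozygous or replicate 3 labelled wild type, and the detectable genes numbered 26 to 31 by other detection rules. Ifit2, at -0.0004 between genotypes, turned to 0.000731 with DESeq2 size factors, 0.001647 with upper-quartile scaling, 0.000120 without a filter, 0.001172 at 1 CPM in 4 libraries, 0.000785 with the DESeq2 Wald test, 0.000518 with limma-voom, 0.000178 with a run term and 0.0089 with RNA integrity as a term. Irf7 turned to -0.016 with limma-voom, -0.0062 with a run term and -0.0032 without a sex term, and with RNA integrity as a term Isg15 turned to -0.00096, Ifitm3 to 0.013 and, between runs, Rnf213 to 0.0024. With a library left out, the genotype differences that changed sign ranged from -0.0999 to 0.133 for Ifit1, -0.0883 to 0.0956 for Ifit2, -0.0184 to 0.127 for Ifit3, -0.168 to 0.0426 for Ifih1, -0.131 to 0.0837 for Irf7, -0.0546 to 0.104 for Irf9, -0.0192 to 0.0713 for Stat2, -0.162 to 0.273 for Isg15, -0.0324 to 0.335 for Bst2, -0.283 to 0.0637 for Trim25, -0.0274 to 0.392 for Parp14, -0.0752 to 0.0899 for B2m, -0.0198 to 0.37 for Tap2 and -0.374 to 0.0709 for Ifitm3. The run differences that did so ranged from -0.199 to 0.103 for Ifih1, -0.118 to 0.398 for Dhx58, -0.414 to 0.126 for Xaf1, -0.0766 to 0.466 for Parp14, -0.0858 to 0.0575 for Rnf213 and -0.106 to 0.0247 for H2-K1. The cause was not tested. The labels carry no replicate numbers, so none served as a block; the fit with both sex and run as terms, which match 1 library of each genotype, is the 72 above, with 0 genes of the set called. Genes with few reads, such as Rsad2 and Dhx58, are limited by depth.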

Other observations

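The class I genes outside the set lay on both sides of 0 between the runs. Of 17 tested, 7 had an unadjusted p under 0.05 in edgeR's quasi-likelihood test, against 10.2% of all genes. An adjusted p under 0.05 was found for 0, against 0.382% of all genes. Of the 17, 9 lay above 0 and 8 below, with a median of 0.03. The runs did not overlap for 5.46% of all genes. H2-T23, the mouse gene for the nonclassical molecule Qa-1, stood at 4.26, 8.99, 9.72 and 6.10 CPM in the first run and at 13.3, 12.5, 11.9 and 9.15 CPM in the second (log2 fold change 0.72 ± 0.22, adjusted p = 0.247, edgeR). Only replicate 4 labelled wild type of the second run lay below a library of the first. H2-Q4 stood at 2.61, 2.67, 2.21 and 3.05 CPM in the first run and at 1.31, 1.68, 1.03 and 2.12 CPM in the second (-0.80 ± 0.29, adjusted p = 0.285, edgeR), without overlap. Tapbpl, a relative of tapasin that edits class I peptides, gave 0.44 ± 0.16, higher in the second run without overlap. These genes were picked after their values were seen, H2 genes share much sequence, and a difference of H2-T23 from B2m was not tested.

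Within the span of the class I members on chromosome 17, 1 gene was called between the runs, the heat shock gene Hspa1b (-0.99). Chromosome 17 held 11 of the 51 called genes with a position and 632 of the 13215 tested genes with one.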
